A study of Mus musculus with 9 samples.

Results

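LPS, the lipopolysaccharide coat of Gram-negative bacteria, induces many genes in macrophages, and 58 autosomal genes of this response stood at least 2-fold higher again in LPS-treated macrophages without SRF. The 58 genes were chosen by measured values. From the whole table of 22524 genes, 11560 had enough counts. The rule kept genes whose mean CPM (counts per 1e6 reads, with libraries scaled by edgeR's TMM factors) was at least 4 times higher with LPS in control cells, at least 3 CPM in control cells with LPS, and at least 2 times higher in SRF-KO than in control cells with LPS. A total of 656 autosomal genes met the conditions on LPS and level, and 69 of these met the last one. Interleukin (Il), Cxcl and Ccl genes and Slc7a11, Ptgs2 and Inhba were left out by name, which removed 11 genes and left 58. Because both contrasts chose the genes, their differences are given as descriptions with no test.

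RNA was sequenced from macrophages grown for 7 days from C57BL/6 mouse bone marrow, in 3 groups of 3 libraries. Control cells (genotype wild type) were left untreated or given LPS for 6 h, and cells labelled SRF-KO were given LPS for 6 h. The sources used here do not give the LPS dose, the animals' age and sex, or how Srf was deleted, nor do they say if replicates were separate animals or cultures. P-values therefore measure only the spread between these libraries, which may be technical. No untreated SRF-KO library was analysed here, so a higher level in SRF-KO cells before LPS and a larger response to LPS cannot be told apart.

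Macrophages sense LPS through Toll-like receptor 4, which switches on NF-kB and AP-1 factors and, through secreted interferon, a second wave of antiviral genes. Serum response factor (SRF) binds CArG boxes in DNA and drives actin cytoskeleton genes with its MRTF partners and immediate-early genes with its TCF partners. Inflammatory macrophages are known for making cytokines and matrix-degrading enzymes, for taking up and using arginine, and for changing the receptors on their surface.

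Total counts per library ranged from 15321839 to 24912173. Srf itself was at 39.1 to 47.2 CPM untreated, 55.2 to 59.5 CPM with LPS and 0.680 to 1.53 CPM in SRF-KO. All 10 macrophage markers were tested, and their summed level was 17202 to 17812 CPM untreated, 24061 to 24547 CPM with LPS and 24667 to 24924 CPM in SRF-KO. Lyz2 made up the largest share of that sum and was higher in SRF-KO, at 12170 to 12384 against 8735 to 9147 CPM. Of the 10 markers 3 rose and 7 fell in SRF-KO (median log2 difference -0.88), and 5 were at 0.5 or less of the control level, among them Fcgr1, Mertk and Cd68. The Y-linked genes Uty, Ddx3y, Kdm5d and Eif2s3y summed to 137 to 146 CPM in control libraries with LPS and 0.0387 to 0.135 CPM in SRF-KO libraries. Y-linked expression therefore differed together with genotype, and for every gene below their effects cannot be told apart. Marker sums of other cells also differed between the LPS-treated groups. They were 11 to 12 CPM in control and 87.2 to 99.0 CPM in SRF-KO for neutrophils (4 of 10 markers tested), and 56.2 to 59.6 against 186 to 194 CPM for osteoclasts (5 of 6). For dendritic cells (2 of 8, nearly all Itgax) the sums were 39.1 to 45.3 against 181 to 187 CPM, and for endothelial cells (3 of 5) 62.4 to 70.2 against 9.15 to 11.1 CPM. Of 8 fibroblast and stromal markers 1 was tested, Pdgfrb, at 13.3 to 17.4 against 25.9 to 28.2 CPM. Ly6g (neutrophil), Col1a1 and Col3a1 (fibroblast), Emcn (endothelial) and Cd209a (dendritic) had 0 counts in every LPS-treated library. Other untested markers had few counts there, given here as raw sums over control and then SRF-KO libraries. Such sums are not scaled for depth. The SRF-KO libraries held 16987011 to 24912173 counts, against 15321839 to 19009123 in control with LPS, and their TMM factors were higher too (1.04 against 0.810 to 0.814). Ngp had 2 and 14 and Ltf 2 and 10 (neutrophil), with 23 and 29 over the untreated libraries. Flt3 had 0 and 13, Zbtb46 12 and 26, Clec9a 14 and 13 and Siglech 2 and 1 (dendritic). Dcn had 12 and 28, Lum 1 and 15, Thy1 3 and 1, and Col1a2 and Pdgfra 1 and 0 (fibroblast). The tested endothelial markers Pecam1 and Cdh5 had 118 and 53, and 231 and 76. The part of other cells in the results was not tested, and in bulk RNA a change in the number of cells of a type and a change in RNA per cell cannot be told apart.

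The 58 genes covered a wide range of sizes and functions. Their SRF-KO to control ratio with LPS had a median of 3.05 and a highest value of 13.9, and 21 of them were at least 4-fold higher. The standard error of this difference on the log2 scale, for the 36 genes given below in every library, ran from 0.0363 (Alas1) to 0.123 (Cd247). In control cells 36 of the 58 were at least 10-fold higher with LPS than without. All 58 had every LPS library above every untreated library, which held for 40.7% of all genes tested, and every SRF-KO library above every control library with LPS, which held for 39.7% of all genes tested. At an adjusted p below 0.05 (edgeR's quasi-likelihood test), 40.8% of all genes were higher and 40.8% lower with LPS in control cells, and 39.1% were higher and 37.9% lower in SRF-KO. The rule fixed these contrasts for the 58 genes, so nothing is read from their counts. With library totals in place of TMM, 2428 genes were higher and 7835 lower with LPS (4722 and 4721 with TMM), and 7059 were higher and 2434 lower in SRF-KO (4521 and 4384 with TMM). That scaling moved the median log2 difference of all genes from -0.02 to -0.57 for LPS. For SRF-KO it moved from 0.01 to 0.37.

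**Figure D1:**
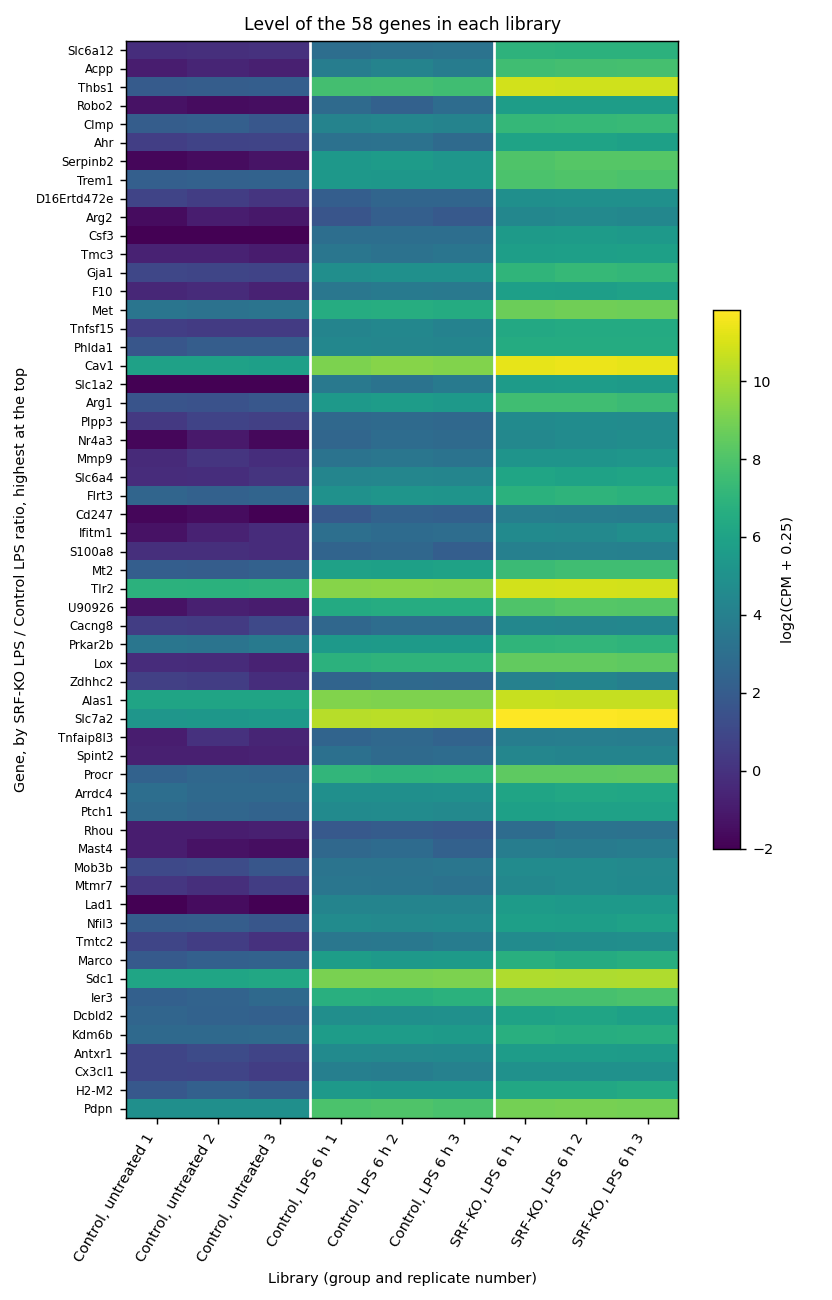
Level of each of the 58 genes (rows, ordered by the SRF-KO LPS to Control LPS ratio) in each of the 9 libraries (columns, with group and replicate number), as log2 of CPM plus 0.25. Every row is lowest in the 3 untreated columns and highest in the 3 SRF-KO columns, and the 3 libraries of a group look alike.

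Most LPS-induced genes were not raised further. Of the 656 LPS-induced autosomal genes, 69 had a ratio of at least 2 in SRF-KO, 258 lay between 0.5 and 2, and 329 were at 0.5 or less. The median ratio over all 656 genes was 0.50, and the lowest was 0.00619. Of the 329 lowered genes, 76 were below their untreated control level in SRF-KO cells with LPS. At the edge of the rule the values ran on without a gap. The last genes inside were Antxr1, Cx3cl1, H2-M2 and Pdpn at ratios of 2.07, 2.04, 2.02 and 2.01. The first outside were Hcar2, Mgarp, Adarb1 and Pdgfrb at 1.98, 1.90, 1.89 and 1.85. On the LPS side, Mob3b, Ptch1, Prkar2b and D16Ertd472e were inside at 4.31, 4.22, 4.16 and 4.16, whereas Mfap3l, Ppp1r9a, Egln3 and Gpc1 were outside at 3.94, 3.87, 3.85 and 3.83.

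**Figure D2:**
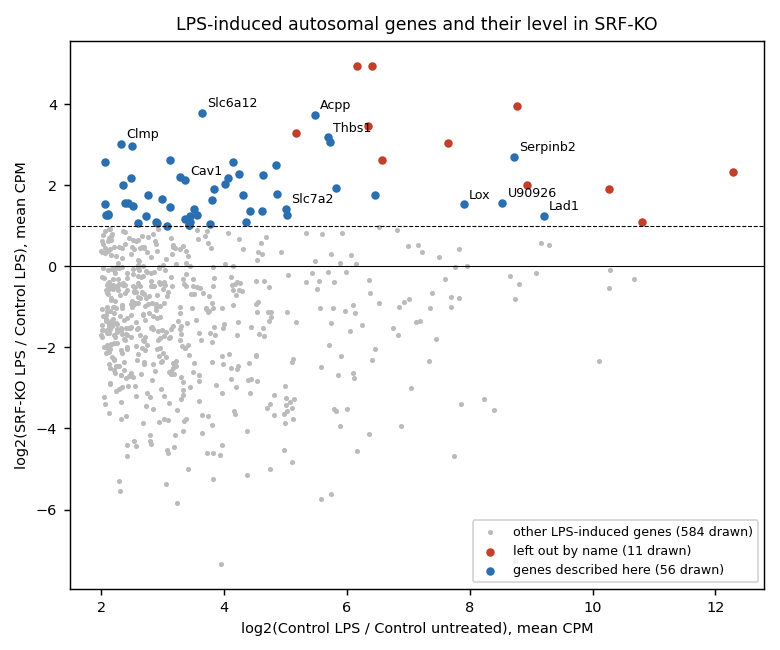
LPS-induced autosomal genes by log2 ratio of mean CPM with LPS to untreated in control cells (horizontal) and log2 ratio of SRF-KO to control with LPS (vertical). Genes at 0 in the untreated or SRF-KO group, among them Csf3 and Slc1a2, are not drawn. The dashed line marks the ratio of 2 that chose the genes, and most grey points lie below the line at 0.

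Promoters offer a measure that the rule did not use. RefSeq promoter windows (GRCm38.p6, from 250 bases before to 50 after the start site) were matched for 44 of the 58 genes, and 13 motifs were searched on both strands. The motif bound by AP-1 factors (TGANTCA) was in 5 of the 44 windows, or 11.4%, against 5.07% of 9218 tested genes and 7.81% of all 32851 windows of that length. It was in 8.13% of the windows of LPS-induced genes with a SRF-KO ratio between 0.5 and 2 and in 10.6% of those lowered in SRF-KO, close to the share of the 58 genes. The C/EBP motif (TTGCNNAA) was in 9 of 44, or 20.5%, against 8.21% and 10.8%, and in 12.9% and 14.2% of those same LPS-induced groups. One of the 9 matches was in the window of Slc1a2, which lies 47779 bases from the GENCODE start of that gene. Of the 44 windows, 35 started within 100 bases of the GENCODE start. The core of the cyclic AMP response element (TGACG) was in 9 of 44, or 20.5%, against 32.7% and 20.8%, and in 25.4% and 20.5% of those LPS-induced groups. One of the 9 windows of the 58 genes with a core was that of Alas1, which lies 700 bases from the GENCODE start of that gene. The interferon-stimulated response element, ISRE, was in 0 of 44 windows, against 3.34% of tested genes and 3.44% of all windows. It was in 10 of 209 windows (4.79%) of the LPS-induced genes with a ratio between 0.5 and 2 and in 49 of 254 (19.3%) of those lowered in SRF-KO. The CArG box was in 1 of 44 (2.27%), that of Arrdc4, against 1.24% and 1.63%, and in 0.479% and 2.36% of the 2 LPS-induced groups. The NF-kB consensus was in 6 of 44 (13.6%), against 13.4% and 11.2%, and in 14.8% and 20.1% of those groups. These shares are descriptions of short windows, and the counts behind them are small.

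Other motifs went both ways. The full cyclic AMP element (TGACGTCA), the ATF4 element (TGATGNAA) and the ETS site (CCGGAAGT) were in 0 of the 44 windows, against 3.39%, 2.25% and 9.09% of tested genes, and 1.79%, 3.97% and 3.89% of all windows. The antioxidant element (TGACNNNGC) was in 8 of 44, or 18.2%, against 15.1% and 12.4%, and its match overlapped that of AP-1 in Mt2, Procr and Met. The E-box (CACGTG, 11.4% against 10.3% and 7.15%) holds the hypoxia motif (ACGTG, 22.7% against 26.2% and 19.6%). The TATA box (TATAAA) was in 4 of 44, or 9.09%, against 6.75% and 13.6%.

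**Figure D3:**
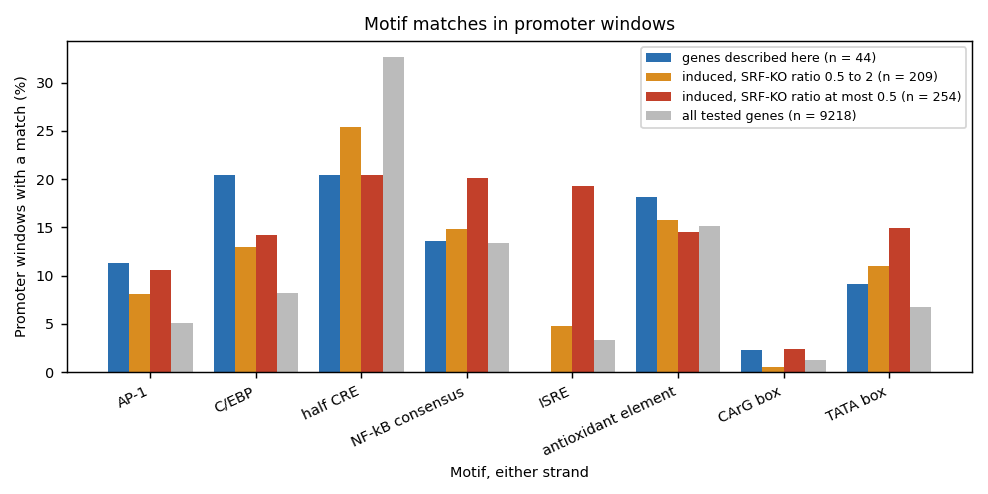
Share of RefSeq promoter windows (%) with at least 1 match to each of 8 motifs on either strand. The bars stand for the 58 genes (44 windows), for LPS-induced genes with a SRF-KO ratio between 0.5 and 2 or at most 0.5, and for all tested genes. The ISRE bar is at 0 for the 58 genes, at 4.79% for the genes with a ratio between 0.5 and 2 and at 19.3% for the genes lowered in SRF-KO.

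The 250 bases upstream of 6 start sites are printed because they are the 5 windows with an AP-1 match and, in Nr4a3, the window with 4 cores, the sequence on which cyclic AMP signals are known to act. Capitals mark matches to AP-1 (TGANTCA), C/EBP (TTGCNNAA) and the core (TGACG), each on either strand. All 6 genes lie on the plus strand and are written 5′ to 3′. Positions are counted back from the RefSeq start site to the first base of the match. That site lies 157 bases downstream of the GENCODE start in Met and 152 bases downstream in Nr4a3. The Met match and the last Nr4a3 core are therefore past the GENCODE start. The AP-1 match lies at -94 in Serpinb2 (chr1:107511173-107511422), -19 in Gja1 (chr10:56377050-56377299), -54 in Met (chr6:17463707-17463956), -154 in Procr (chr2:155750967-155751216) and -79 in Mt2 (chr8:94172368-94172617). The cores of Nr4a3 (chr4:48045055-48045304) lie at -231, -213, -205 and -147.
Serpinb2: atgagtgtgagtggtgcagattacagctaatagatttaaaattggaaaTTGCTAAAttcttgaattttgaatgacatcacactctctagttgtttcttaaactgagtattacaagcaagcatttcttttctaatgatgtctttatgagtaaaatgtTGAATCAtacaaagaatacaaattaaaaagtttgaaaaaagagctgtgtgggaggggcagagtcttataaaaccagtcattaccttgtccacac
Gja1: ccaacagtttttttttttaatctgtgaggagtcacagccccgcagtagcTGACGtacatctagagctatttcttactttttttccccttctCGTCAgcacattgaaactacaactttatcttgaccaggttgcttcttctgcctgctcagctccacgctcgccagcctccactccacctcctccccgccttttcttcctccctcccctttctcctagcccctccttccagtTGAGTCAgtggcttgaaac
Met: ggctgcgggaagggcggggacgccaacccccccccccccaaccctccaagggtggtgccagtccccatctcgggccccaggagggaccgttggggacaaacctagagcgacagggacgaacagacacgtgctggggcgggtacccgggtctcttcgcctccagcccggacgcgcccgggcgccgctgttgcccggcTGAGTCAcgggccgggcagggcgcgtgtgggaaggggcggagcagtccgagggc
Procr: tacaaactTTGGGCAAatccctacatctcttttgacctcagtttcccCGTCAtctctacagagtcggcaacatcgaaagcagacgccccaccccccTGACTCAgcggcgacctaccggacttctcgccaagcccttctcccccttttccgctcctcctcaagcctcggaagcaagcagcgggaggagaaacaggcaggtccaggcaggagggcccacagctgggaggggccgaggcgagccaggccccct
Mt2: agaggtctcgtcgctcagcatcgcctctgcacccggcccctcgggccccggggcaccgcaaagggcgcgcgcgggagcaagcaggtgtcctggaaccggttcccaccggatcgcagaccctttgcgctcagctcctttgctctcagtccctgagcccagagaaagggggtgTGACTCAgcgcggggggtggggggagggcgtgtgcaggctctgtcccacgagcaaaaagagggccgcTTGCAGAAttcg
Nr4a3: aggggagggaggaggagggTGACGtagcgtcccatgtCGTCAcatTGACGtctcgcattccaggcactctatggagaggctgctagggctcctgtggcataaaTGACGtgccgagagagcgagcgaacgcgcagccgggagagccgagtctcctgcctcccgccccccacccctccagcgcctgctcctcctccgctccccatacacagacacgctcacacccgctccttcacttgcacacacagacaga

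Secreted signals were a small group of 4 genes with ratios from 2.04 to 5.93. Csf3 encodes granulocyte colony-stimulating factor, the cytokine that drives neutrophil production. It had 0 counts in the untreated libraries, 7.73, 7.67 and 7.69 CPM with LPS and 45.6, 47.6 and 43.8 CPM in SRF-KO with LPS. Against a floor of 3 counts over the untreated group, Csf3 was at least 155-fold higher with LPS in control cells and at least 923-fold higher in SRF-KO. Tnfsf15, the TNF family ligand TL1A, was at 1.25, 1.05 and 1.07 CPM untreated, 18.5, 20.7 and 17.4 CPM with LPS and 81.1, 86.1 and 87.8 CPM in the SRF-KO group. The SRF-KO means of Csf3 and Tnfsf15 were 5.93 and 4.51 times the control means with LPS. Cx3cl1, the membrane-bound chemokine fractalkine, was 2.04 times higher. S100a8, a calcium-binding alarmin abundant in neutrophils, was at 0.675, 0.67 and 0.587 CPM untreated, 5.24, 5.88 and 4.2 CPM with LPS and 15.7, 16.3 and 16.2 CPM in the SRF-KO group, a ratio of 3.15. Its usual partner S100a9 was between 0.270 and 0.776 CPM in all LPS-treated libraries, and Ly6g had 0 counts there. Camp was at 0.967 to 1.16 CPM in control cells with LPS and 2.13 to 3.06 CPM in SRF-KO. Most of the neutrophil marker sum in SRF-KO was Mmp8, at 68.6 to 79.2 CPM. Camp and Mmp8 both rose in SRF-KO (adjusted p = 3.52e-05 and 1.21e-30, edgeR), and their part in the S100a8 level was not tested.

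Around these ligands, the list of growth factors and colony-stimulating factors had 24 tested genes, and 1 (Csf3) was among the 58. Of the 24 genes 12 rose and 7 fell in SRF-KO (13 and 5 with library totals). Those with the smallest p were Osm (oncostatin M), Ereg (epiregulin) and Edn1 (endothelin). Osm was at 9.09 ± 0.309 CPM in control and 87.3 ± 0.979 CPM in SRF-KO (log2 difference 3.27, adjusted p = 1.57e-32, edgeR). Ereg was at 58.4 ± 2.09 CPM in SRF-KO, but its control level with LPS, 0.255 ± 0.0923 CPM, was under the 3 CPM of the rule (SD, n = 3 throughout). Edn1, which rose with LPS, fell from 89.9 ± 3.43 to 17.7 ± 0.843 CPM (log2 difference -2.34, adjusted p = 9.6e-30, edgeR). Of 27 TNF family ligands and receptors 9 rose and 14 fell, and the median log2 difference was -0.22. With library totals 13 rose and 9 fell, and the median was 0.13. Tnfsf15 was the 1 of the 58 on that list.

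Proteases, inhibitors, clotting factors and matrix proteins made up 8 of the 58 genes. Thbs1 (ENSMUSG00000040152, chromosome 2, 118111876 to 118127133, plus strand, GRCm38) encodes thrombospondin, a matrix glycoprotein that binds CD36 and CD47 and activates latent TGF-beta. Its levels were 3.71, 4.02 and 4.06 CPM untreated, 208, 212 and 188 CPM with LPS and 1903, 1828 and 1818 CPM in the SRF-KO group. The SRF-KO mean was 9.13 times the control mean with LPS (log2 difference 3.19, SE 0.0438) and 470.5 times the untreated one. Serpinb2 (ENSMUSG00000062345, chromosome 1, 107511423 to 107535478, plus strand), plasminogen activator inhibitor type 2, was at 0.0482, 0.0958 and 0.16 CPM untreated, 41.4, 47.9 and 38.3 CPM with LPS and 257, 288 and 289.9 CPM in the SRF-KO group. The whole span from untreated to SRF-KO was 2745-fold, resting on 6 untreated counts. F10, clotting factor X, was at 0.482, 0.575 and 0.374 CPM untreated, 11, 12.9 and 11.6 CPM with LPS and 56.2, 53 and 59.2 CPM in the SRF-KO group. Its SRF-KO mean was 4.75 times the control mean with LPS.

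Mmp9, a gelatinase, was at 0.531, 0.862 and 0.641 CPM untreated, 9.18, 10.5 and 9.25 CPM with LPS and 35.1, 35.6 and 38.7 CPM in the SRF-KO group. Procr, the protein C receptor that slows clotting, was at 4.82, 5.89 and 5.5 CPM untreated, 137, 129 and 132 CPM with LPS and 334, 337 and 349.8 CPM in the SRF-KO group. Lox, the lysyl oxidase that crosslinks collagen and elastin, was at 0.579, 0.575 and 0.374 CPM untreated, 116, 125 and 125 CPM with LPS and 360.2, 362 and 341 CPM in the SRF-KO group. The SRF-KO to control ratios of Mmp9, Procr and Lox were 3.78, 2.57 and 2.91. Lad1, ladinin of the basement membrane, was at 18.8, 18.7 and 18.9 CPM with LPS and 47.3, 42.9 and 43.6 CPM in SRF-KO, and had only 2 counts over the untreated group. The SRF-KO to control ratio of Lad1 was 2.37. The LPS ratio of Lad1 was 589 from mean CPM. From counts pooled over each group it was 567, with a 95% counting interval of 157 to 4692. Spint2, a membrane-bound inhibitor of serine proteases, was 2.57 times higher in SRF-KO. Such intervals and floors cover counting error only.

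Of 36 tested genes on the list of extracellular proteases and inhibitors, 18 rose and 14 fell in SRF-KO, and 5 were among the 58. With library totals 22 rose and 13 fell. Fgl2, a prothrombinase of activated macrophages, fell from 1189 ± 17.3 to 7.36 ± 1.05 CPM (adjusted p = 5.81e-45, edgeR). Mmp25 fell from 152 ± 3.76 to 11.2 ± 0.172 CPM (adjusted p = 4.72e-37). Mmp12, outside the 58, rose from 133 ± 8.06 to 1026 ± 82.0 CPM (adjusted p = 6.28e-35, edgeR). LPS-induced members of this list were thus found both far above and far below their control level in SRF-KO.

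Immune receptors gave 6 genes. Trem1 (ENSMUSG00000042265, chromosome 17, 48232768 to 48246924, plus strand), a receptor that amplifies Toll-like receptor signals, was at 4.34, 4.74 and 4.75 CPM untreated, 41.7, 40.2 and 38.9 CPM with LPS and 241, 255 and 243 CPM in the SRF-KO group. Tlr2, the receptor for bacterial lipoproteins, was at 117, 115 and 123 CPM untreated, 628, 649.8 and 637 CPM with LPS and 1861, 1919 and 1892 CPM in the SRF-KO group. The SRF-KO means of Trem1 and Tlr2 were 6.13 and 2.96 times those of control cells with LPS. Marco, a scavenger receptor for bacteria, was at 3.57, 4.5 and 4.86 CPM untreated, 51.6, 43.4 and 45.6 CPM with LPS and 107, 91.6 and 102 CPM in the SRF-KO group. Its SRF-KO to control ratio was 2.14, one of the lower ones. Cd247, the zeta signalling chain of the T cell receptor and some Fc receptors, was at 3.38, 4.84 and 4.4 CPM with LPS and 14.8, 14.4 and 13.9 CPM in SRF-KO. Its SRF-KO to control ratio was 3.41, and its LPS ratio was 87.6 from mean CPM. From pooled counts, with 3 untreated, the LPS ratio was 85.5 with a 95% counting interval of 28.8 to 419. Exons of Cd247 share 3007 bases with Pou2f1 on the other strand, and since the strand setting of the counting is not given, reads of both genes there cannot be told apart. Pou2f1 was at 16.8 CPM in control cells with LPS and 29.4 CPM in SRF-KO. The T cell marker Cd3e had 0 counts in every LPS-treated library. On the same marker list, the natural killer cell marker Klrb1c had 4 raw counts over the control libraries with LPS and 21 over the deeper SRF-KO libraries. Trac had 2 and 2, whereas Cd4, Gzmb and Cd8a went the other way (93 and 1, 3 and 0, 2 and 0). The part of such cells in the Cd247 level was not tested. H2-M2, a non-classical MHC class I gene, and Ifitm1, a membrane protein of the interferon-inducible IFITM family, were 2.02 and 3.37 times higher. Both have close relatives, so reads may be split between copies.

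On the list of innate receptors, 16 of 48 tested genes rose and 31 fell in SRF-KO (median log2 difference -0.63, against 0.01 over all genes). With library totals 19 rose and 26 fell, with a median of -0.27. Fcgr1 and Fcgr4, which bind antibodies, fell in SRF-KO, with log2 differences of -4.46 and -3.78 (adjusted p = 2.09e-42 and 5.68e-40, edgeR). Clec4n, the lectin receptor dectin-2, rose from 6.08 ± 0.252 to 213 ± 6.03 CPM (log2 difference 5.13, adjusted p = 6.2e-39), but its LPS contrast in control cells did not pass (adjusted p = 0.0977). Trem1, Tlr2 and Marco were the 3 of the 58 on this list.

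Growth factor, guidance and adhesion receptors formed one of the 2 largest groups, with 9 genes. Robo2 (ENSMUSG00000052516, chromosome 16, 73891839 to 74411825, minus strand), a receptor for Slit guidance proteins, was at 0.145, 0.0958 and 0.107 CPM untreated, 6.61, 4.63 and 7.18 CPM with LPS and 51.4, 51.2 and 51.5 CPM in the SRF-KO group. Clmp (ENSMUSG00000032024, chromosome 9, 40685962 to 40785319, plus strand), a cell adhesion molecule of epithelial junctions, was at 3.91, 4.31 and 3.1 CPM untreated, 18.1, 20.05 and 18 CPM with LPS and 148, 155 and 156 CPM in the SRF-KO group. The SRF-KO to control ratios of Robo2 and Clmp with LPS were 8.37 and 8.15. Met, the receptor for hepatocyte growth factor, was at 10.2, 8.91 and 9.88 CPM untreated, 94.7, 97.5 and 91 CPM with LPS and 423, 448 and 433 CPM in the SRF-KO group. Its log2 difference between SRF-KO and control with LPS was 2.20 (SE 0.0421). Sdc1, a heparan sulfate proteoglycan of the syndecan family, was at 69, 70.5 and 77.7 CPM untreated, 531, 535 and 544 CPM with LPS and 1157, 1125 and 1165 CPM in the SRF-KO group. Pdpn, podoplanin, the ligand of the lectin receptor CLEC-2, was at 29.1, 28.8 and 29.4 CPM untreated, 238, 262 and 233 CPM with LPS and 481, 501 and 492 CPM in the SRF-KO group. Their ratios of 2.14 and 2.01 were close to the threshold of 2, and Pdpn was not chosen in every fit that left out 1 library. The others were Flrt3, a partner in axon guidance (3.42 times higher), Ptch1, the Hedgehog receptor (2.43), Dcbld2 (2.1) and Antxr1, an anthrax toxin receptor that binds collagen (2.07).

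Caveolae and gap junctions were represented by Cav1 and Gja1. Cav1 (ENSMUSG00000007655, chromosome 6, 17306335 to 17341452, plus strand), the main coat protein of caveolae, was at 59.6, 59.4 and 56 CPM untreated, 556, 639.9 and 599.8 CPM with LPS and 2582, 2745 and 2497 CPM in the SRF-KO group. Per kilobase of exon it had the highest level of the 58 genes in SRF-KO, at 757 CPM per kb against 174 in control cells with LPS. Tlr2, Slc7a2, U90926 and Mt2 came next on that scale, at 627, 386, 341 and 316 CPM per kb. The lowest was Mast4, at 0.434 CPM per kb. Gja1, a connexin that forms gap junctions, was at 1.64, 1.58 and 1.44 CPM untreated, 27.7, 29.9 and 30.6 CPM with LPS and 133, 155 and 141 CPM in the SRF-KO group. Its SRF-KO mean was 4.86 times the control mean with LPS.

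Transporters and channels gave 6 genes, including the one with the largest ratio. Slc6a12 (ENSMUSG00000030109, chromosome 6, 121343076 to 121365775, plus strand), which carries betaine and GABA into cells, was at 0.627, 0.67 and 0.747 CPM untreated, 7.57, 8.71 and 9.18 CPM with LPS and 121, 117 and 117 CPM in the SRF-KO group. The ratio of SRF-KO to control was 13.9 (log2 difference 3.79, SE 0.0675), similar in size to its LPS ratio of 12.5. Slc1a2, a glutamate transporter best known from astrocytes, had 0 counts in the untreated libraries, 11.8, 9.26 and 12 CPM with LPS and 47, 49.99 and 46.4 CPM in SRF-KO. That makes it at least 966-fold higher in SRF-KO with LPS than untreated, at a floor of 3 counts over the group. Slc6a4, the serotonin transporter, was 3.45 times higher in SRF-KO than in control cells with LPS. Tmc3, of the transmembrane channel-like family, was at 0.386, 0.383 and 0.267 CPM untreated, 10.3, 9.06 and 10.3 CPM with LPS and 54.1, 55.3 and 57.4 CPM in the SRF-KO group. The ratios of Slc1a2 and Tmc3 were 4.34 and 5.63. Cacng8, an auxiliary subunit of AMPA-type glutamate receptors, was 2.96 times higher.

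**Figure D4:**
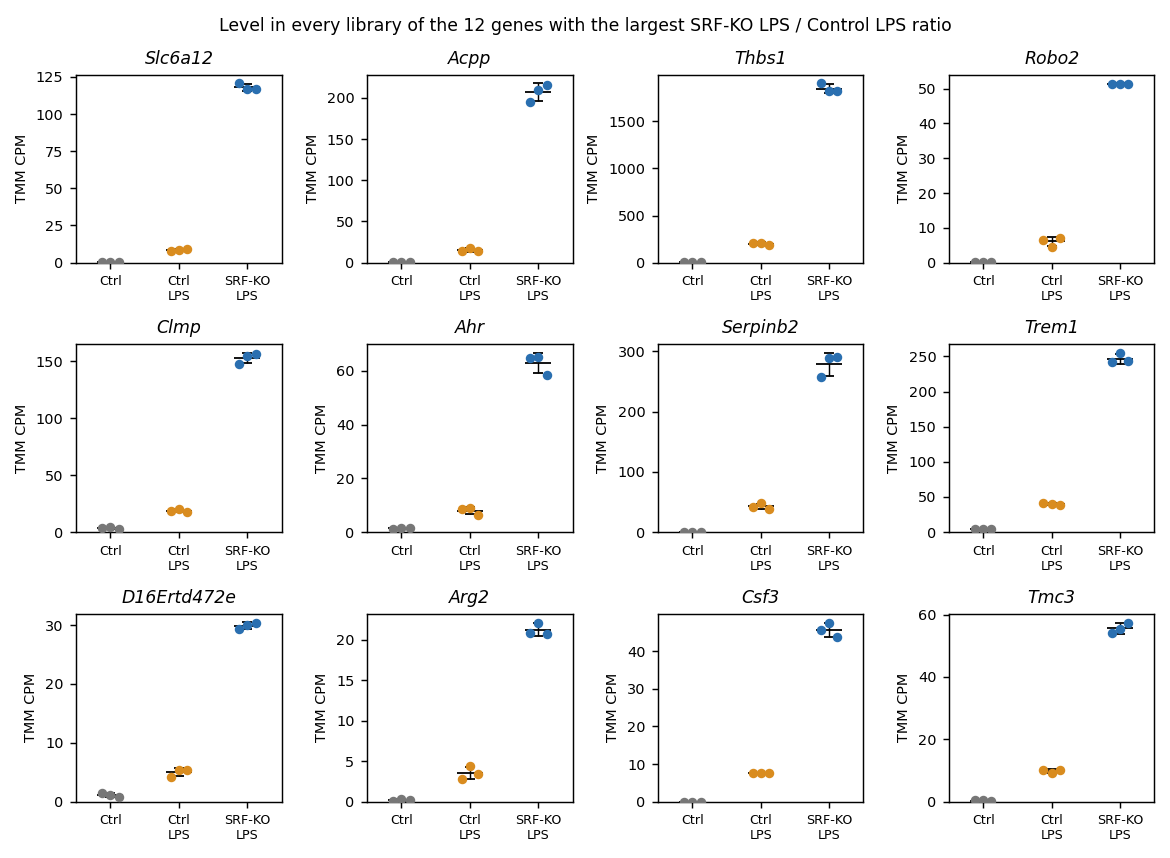
CPM (TMM-scaled) in every library for the 12 genes with the largest SRF-KO LPS to Control LPS ratio. Points are libraries, bars are mean ± SD over n = 3, and all axes start at 0. In each panel the 3 SRF-KO points lie above the other 6.

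Arginine handling was covered by 3 genes. Slc7a2 (ENSMUSG00000031596, chromosome 8, 40862396 to 40922308, plus strand), the cationic amino acid transporter that brings arginine into activated macrophages, was at 38.3, 40.1 and 44.6 CPM untreated, 1308, 1328 and 1303 CPM with LPS and 3496, 3621 and 3466 CPM in the SRF-KO group. It had the highest CPM of the 58 genes in SRF-KO, 2.69 times the control level with LPS. Arg1, the cytosolic arginase, was at 2.75, 2.59 and 3.1 CPM untreated, 44, 49.9 and 42.9 CPM with LPS and 190.3, 192 and 173 CPM in the SRF-KO group. Arg2, the mitochondrial arginase, was at 0.0965, 0.287 and 0.214 CPM untreated, 2.82, 4.36 and 3.43 CPM with LPS and 20.8, 22.1 and 20.6 CPM in the SRF-KO group. Arg1 and Arg2 were 4.06 and 5.99 times higher in SRF-KO than in control cells with LPS. Arg2 shares 285 exon bases with Vti1b on the other strand. Of 26 tested genes on the list of lipid mediators and amines, which holds both arginases, 13 rose and 11 fell in SRF-KO, or 15 and 8 with library totals. On that list Ch25h fell from 218 ± 16.4 to 34.1 ± 0.746 CPM (adjusted p = 8.82e-33, edgeR) and Pla2g7 rose from 103 ± 5.57 to 264 ± 11.7 CPM (adjusted p = 2.32e-25).

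Other enzymes and metal-binding proteins included Acpp (ENSMUSG00000032561, chromosome 9, 104288251 to 104337748, minus strand), the acid phosphatase first known from prostate. Acpp was at 0.289, 0.431 and 0.32 CPM untreated, 14.5, 18.1 and 13.6 CPM with LPS and 195, 210.2 and 216 CPM in the SRF-KO group. Its ratio of 13.4 was the second largest. Alas1, the first and rate-limiting enzyme of heme synthesis, was at 66.1, 65.9 and 66.8 CPM untreated, 579, 576 and 578 CPM with LPS and 1597, 1572 and 1585 CPM in the SRF-KO group. Mt2, a zinc-binding metallothionein, was at 4.15, 3.97 and 4.59 CPM untreated, 59.1, 57.5 and 61.2 CPM with LPS and 172, 192 and 193 CPM in the SRF-KO group. The ratios of Alas1 and Mt2 were 2.74 and 3.13. Plpp3, a lipid phosphate phosphatase, was 4.004 times higher, Zdhhc2, a palmitoyltransferase, 2.81 times, Mtmr7, a myotubularin-related phosphatase, 2.37 times and Tmtc2 2.24 times. On the list of NRF2 and antioxidant genes, 22 of 30 tested genes rose and 5 fell in SRF-KO (27 and 0 with library totals), and Mt2 was the 1 of the 58 among them. Cat (catalase), Gclm and Txnrd1 had the smallest p of this list, with log2 differences of 2.51, 2.34 and 1.85 (adjusted p = 4.1e-36, 2.22e-34 and 3.7e-33, edgeR).

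Transcription and chromatin regulators were 4 of the 58 genes. Ahr (ENSMUSG00000019256, chromosome 12, 35497974 to 35535038, minus strand), the ligand-activated aryl hydrocarbon receptor, was at 1.25, 1.44 and 1.55 CPM untreated, 8.54, 8.92 and 6.53 CPM with LPS and 64.9, 65.4 and 58.6 CPM in the SRF-KO group. Nr4a3, an orphan nuclear receptor induced by many stimuli, was at 0.0482, 0.239 and 0.0534 CPM untreated, 5.56, 7.12 and 6.66 CPM with LPS and 21.9, 25.6 and 26.9 CPM in the SRF-KO group. Nfil3, a basic leucine zipper repressor, was at 3.81, 3.97 and 3.04 CPM untreated, 24.9, 22.5 and 24 CPM with LPS and 55.4, 54.3 and 59.1 CPM in the SRF-KO group. For these the SRF-KO means were 7.87, 3.85 and 2.37 times the control means with LPS. Kdm6b, the histone demethylase JMJD3, was 2.09 times higher. On the list of AP-1, CREB and NR4A factors, 13 of 26 tested genes rose and 8 fell in SRF-KO, or 18 and 5 with library totals. The log2 differences of Batf2, Batf and Jun were -3.70, -2.37 and 1.52 (adjusted p = 2.27e-32, 1.42e-27 and 4.86e-27, edgeR).

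Signalling and survival genes were a group of 8 with mostly modest ratios. Phlda1, a regulator of growth factor receptor signalling, was at 2.94, 3.93 and 3.95 CPM untreated, 20.5, 20.3 and 19.7 CPM with LPS and 92.1, 91.2 and 89.2 CPM in the SRF-KO group. Ier3, an immediate-early gene that affects cell survival, was at 4.44, 4.98 and 6.25 CPM untreated, 104, 103 and 115 CPM with LPS and 225, 222 and 236 CPM in the SRF-KO group. The ratios were 4.5 and 2.13. Ier3 was the 1 of the 58 genes on the list of SRF and TCF immediate-early genes. Of 21 tested genes on that list, 10 rose and 9 fell in SRF-KO, or 13 and 8 with library totals. Prkar2b, a regulatory subunit of protein kinase A, was 2.92 times higher, Tnfaip8l3, a phosphoinositide carrier, 2.66 times, and Rhou 2.4 times. Arrdc4, an arrestin-related protein, was 2.43 times higher, Mast4, a kinase, 2.4 times and Mob3b 2.4 times. Mast4 shares 182 exon bases with Cd180 on the other strand, which fell from 326 to 79.2 CPM in SRF-KO (adjusted p = 2.49e-33, edgeR). Of the 58 genes, 6 share exon bases with another counted gene, namely Arg2, Cd247, Zdhhc2, Mast4, Mtmr7 and Dcbld2, all with a gene on the other strand. From control to SRF-KO with LPS, the levels of these other genes went both ways. Pou2f1 (Cd247) went from 16.8 to 29.4 CPM, Cnot7 (Zdhhc2) from 59.6 to 83.2 and Vps37a (Mtmr7) from 55.1 to 77.5. Like Cd180, Vti1b (Arg2) went down, from 68.4 to 52.2 CPM, as did St3gal6 (Dcbld2), from 1.54 to 0.257. With annotated genes that were not counted included, 21 share exon bases. Among them, Tmc3 shares 3961 bases with Gm16638, Phlda1 727 with Gm28592 and Mt2 432 with Gm45774, all on the other strand. Serpinb2 shares 291 bases with Serpinb10 on the same strand. The part of such genes in these counts was not tested.

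Of the remaining genes, D16Ertd472e was at 1.54, 1.2 and 0.854 CPM untreated, 4.19, 5.39 and 5.37 CPM with LPS and 29.3, 29.99 and 30.4 CPM in the SRF-KO group. U90926, annotated as protein-coding, was at 0.145, 0.335 and 0.267 CPM untreated, 88.4, 95.7 and 92.6 CPM with LPS and 255, 286 and 278 CPM in the SRF-KO group. They stood 6.01 and 2.96 times higher in SRF-KO than in control cells with LPS. The U90926 level without LPS rests on 15 counts over the 3 untreated libraries, and the LPS ratio in control cells was 370.4.

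Several gene lists held none of the 58 genes. Of 48 interferon-stimulated genes, 48 rose with LPS (46 with library totals), and in SRF-KO 0 rose and 48 fell (median log2 difference -2.14). Of 27 NF-kB and feedback genes, 27 rose with LPS (26 with library totals), and in SRF-KO 4 rose and 22 fell (median -0.68), or 5 and 18 with library totals (median -0.32). Of 29 genes on the list of cytoskeletal genes under SRF and MRTF control, 5 rose and 22 fell in SRF-KO (median -0.69), or 9 and 18 with library totals (median -0.33). That list holds Srf itself, whose fall is given by the genotype and is counted here. Of 33 signalling brakes, 12 rose and 15 fell (median -0.10), but 16 rose and 12 fell with library totals (median 0.26). Of 34 hypoxia and HIF genes, 19 rose and 7 fell, or 29 and 3 with library totals. Of 26 integrated stress genes under ATF4, 20 rose and 3 fell (median 1.05), while 7 rose and 14 fell with LPS in control cells (5 and 19 with library totals). Of 34 cell cycle genes, 34 fell with LPS in control cells, and in SRF-KO 31 rose and 2 fell (median 2.95). Beside these counts, 39.1% of all genes rose and 37.9% fell in SRF-KO.

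The genes next to the 58 were not used by the rule and were mixed. Within 200 kb, 52 of the 58 genes had at least 1 tested neighbour, and there were 228 such neighbours outside the 58. Of these, 93 rose (40.8%) and 88 fell in SRF-KO, close to the 39.1% and 37.9% of all genes. The median log2 difference of the neighbours was 0.02, against 0.01 for all genes. The 58 held 2 pairs of neighbours, Cav1 with Met, 122 kb apart on chromosome 6, and Zdhhc2 with Mtmr7, 40.8 kb apart on chromosome 8.

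Single neighbours, named after their values were seen, went both ways. Cav2, beside Cav1 and Met, rose from 129 to 268 CPM (log2 difference 1.05, adjusted p = 1.35e-21, edgeR). Slc6a13, 5.34 kb from Slc6a12, rose by 1.96 on the log2 scale from a low level, and Mt1, 5.51 kb from Mt2, rose by 1.89 (adjusted p = 4.15e-09 and 1.41e-28, edgeR). F7, 1.5 kb from F10, rose by 1.09 (adjusted p = 0.000689). Next to Trem1, Treml4 rose by 3.49, whereas Treml2 and Trem2 fell, with log2 differences of -3.56 and -1.61 (adjusted p = 1.51e-28, 2.34e-31 and 3.03e-28, edgeR). Tlr9, 6.57 kb from Alas1, fell from 66.1 to 2.93 CPM, and Flot1, 0.307 kb from Ier3, from 70.3 to 22.9 CPM (adjusted p = 5.9e-32 and 1.36e-24, edgeR).

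**Figure D5:**
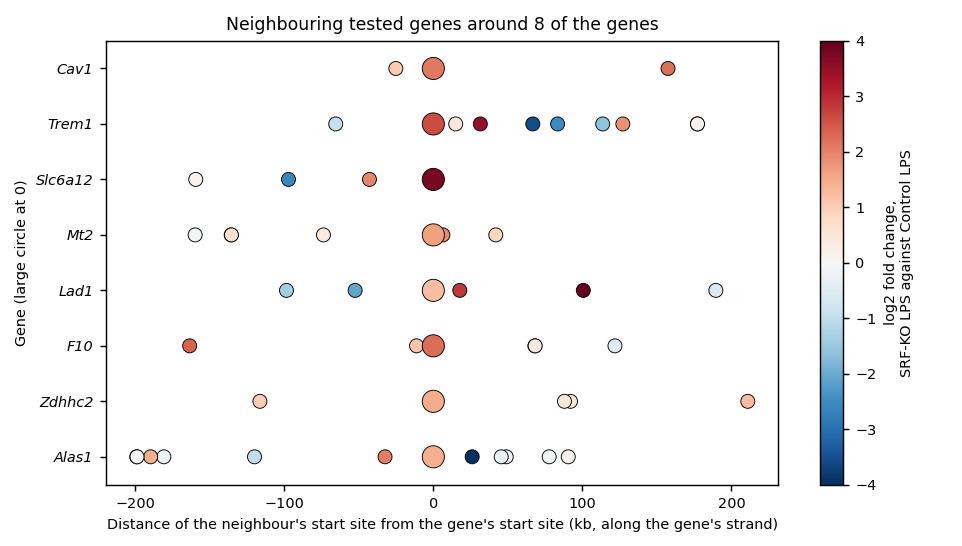
Tested neighbours of 8 of the genes, placed by the distance of their start site (kb, along the strand of the gene at 0) and coloured by the log2 fold change of SRF-KO against control with LPS, with the scale ending at 4 and -4. Large circles are the genes themselves, and red and blue small circles stand beside the same gene around Trem1, Slc6a12, Lad1 and Alas1.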

How the data were processed

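Per the file headers, each of the 9 deposited files holds 1 whole-number read count per Ensembl gene, which the authors did not normalize. Per the submitters' processing notes, bcl2fastq 2.19, Trimmomatic, STAR 2.5.4b, featureCounts and edgeR were used with build GRCm38. Counting options, strand setting and annotation release: not given in the sources used here. Per the labels, the TruSeq library kit was a stranded one.

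Sample titles gave the groups and the replicate numbers. Symbols and coordinates from GENCODE mouse release M21 (GRCm38) were found for 22214 of 22524 identifiers. In R 4.3.3, edgeR 4.0.16 kept 11560 genes (filterByExpr by group) and fitted all 9 libraries in 1 quasi-likelihood model (TMM, robust, group as the only term), with Benjamini-Hochberg adjustment over all genes. Standard errors came from the unshrunken fold change and the F statistic. The steps were tested on simulated counts. Alternatives were library totals, no low-count filter, DESeq2 1.42.0, the replicate block, 2 groups alone, other thresholds and leaving out each library. Exon lengths for CPM per kb are unions over all transcripts. Promoter sequences are RefSeq's (GRCm38.p6), 1 window per gene.

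The genes, gene lists, function groups and tests were chosen with earlier results of these data known. All 58 genes are named. Values per library were given to the 20 largest SRF-KO ratios, the 10 highest SRF-KO levels, the 8 largest LPS ratios and genes on a fixed list; other list genes named are up to 3 per list, by smallest p. S100a8, outside that rule, was given in full after its values were seen.

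Between replicates of a group, chi-square over its degrees of freedom was 1.75 to 3.95, above sampling noise. Deviations from the group means correlated between same-numbered libraries of different groups at -0.07 to 0.10, so the numbers were not treated as pairs.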

Additional observations from a re-analysis of the deposited data

How the results depend on the processing

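The number of genes that the rule chose was 58. It was 91 with an SRF-KO ratio of at least 1.5, 29 with at least 3 and 37 with at least 10 CPM in control cells with LPS. With library totals in place of TMM 60 genes were chosen, 44 of them among the 58, and 14 of the 58 were lost, among them Clmp, Ahr, Arg2, Phlda1 and Tlr2. TMM factors were 1.18 to 1.19 in untreated libraries, 0.810 to 0.814 in control libraries with LPS and 1.04 in SRF-KO. Library totals thus lower every LPS ratio and every control level with LPS, and raise every SRF-KO ratio. The 14 genes were therefore lost on the LPS ratio or the level, not on the SRF-KO ratio. Leaving out each library in turn gave 57 to 61 genes, and 51 of the 58 were chosen every time. The 7 others, D16Ertd472e, Prkar2b, Ptch1, Mob3b, Cx3cl1, H2-M2 and Pdpn, lie near a threshold. With the replicate block, 9467 genes passed for LPS and 8919 for SRF-KO, against 9443 and 8905 without it, and it changed no call named here. Why the numbers changed with the other alternatives was not tested. The 70 log2 fold changes of genes with values per library kept their direction and passed the test in 770 of 770 refits, but these contrasts chose the genes. Genes near 3 CPM rest on few reads, which limits their precision.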
